A study of Mus musculus with 5 samples.

Results

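DNA methylation and Polycomb regulators were followed in mouse hematopoietic stem cells (HSCs) with and without Syncrip, which encodes an RNA-binding protein. The 10 genes were taken by name: the DNA methyltransferases Dnmt1, Dnmt3a and Dnmt3b, the TET dioxygenases Tet1, Tet2 and Tet3, the Polycomb genes Asxl1, Ezh1 and Ezh2, and the histone methyltransferase Kmt2a. All 10 were present among the 24046 gene symbols of the deposited table, and all 10 passed the filter on low values that left 13661 genes for testing. They were chosen by name, with earlier results of these data known.

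Donor marrow carried Syncrip flox/flox alleles, without the Mx1-Cre transgene in 3 libraries (Mx1 Cre-, WT 1, WT 2 and WT 3) or with it in 2 libraries (Mx1 Cre+, KO 2 and KO 3). It was transplanted into congenic CD45.1 recipients, and all mice received polyinosinic:polycytidylic acid (pIpC), an inducer of interferon that switches on Cre under the Mx1 promoter. At 9 weeks from transplantation, which was 3 weeks from pIpC, HSCs were collected by sorting CD45.2+, Lin-, Sca1+, cKit+, CD150+, CD48- cells, and their RNA was sequenced in bulk after low-input SMART-Seq amplification. Mx1-Cre acts in many cell types besides HSCs, recipients keep host cells outside the CD45.2+ gate, and only the KO marrow carried Cre, so the presence of Cre and the loss of Syncrip cannot be told apart. Donor age was not in the labels, and since the labels do not say whether each library came from a separate mouse, p-values measure only the spread between these libraries.

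Cytosine methylation at CpG dinucleotides is copied to the new strand at each cell division by the maintenance enzyme DNMT1 and is placed on unmethylated DNA by the de novo enzymes DNMT3A and DNMT3B. TET enzymes oxidize methylated cytosine, which opens the way to its removal. Polycomb repressive complex 2 (PRC2), with EZH1 or EZH2 as its catalytic subunit, methylates histone H3 at silenced genes, Polycomb repressive complex 1 (PRC1) ubiquitylates histone H2A there, and ASXL1 is a cofactor of the BAP1 enzyme that removes this ubiquitin. KMT2A (MLL1) places an activating methyl mark on histone H3 at genes such as the Hoxa cluster. DNMT3A, TET2 and ASXL1 are the genes most often mutated in clonal hematopoiesis in people, and KMT2A is rearranged in acute leukemia.

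The RNA levels of these genes are what was measured here, not DNA methylation or histone marks. The promoters of these genes hold CpGs, the sequence on which DNA methyltransferases and TET enzymes act. Whether the enzymes act at these promoters was not measured. The windows below are the 100 bases before an annotated transcription start, from RefSeq on GRCm38.p6, written 5′ to 3′ along the gene, with each CpG in capitals. They are shown for the paralog pairs Dnmt3a and Dnmt3b, and Ezh1 and Ezh2, whose values are compared below, and for Tet2, the promoter with the most CpGs among the 10 genes.
Dnmt3a, chr12:3807060-3807159, plus strand: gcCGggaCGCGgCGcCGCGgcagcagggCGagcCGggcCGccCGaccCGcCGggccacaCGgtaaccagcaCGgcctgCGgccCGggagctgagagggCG
Dnmt3b, chr2:153649349-153649448, plus strand: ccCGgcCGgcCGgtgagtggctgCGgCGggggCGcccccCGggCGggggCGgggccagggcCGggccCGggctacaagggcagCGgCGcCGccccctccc
Ezh1, chr11:101226464-101226563, minus strand: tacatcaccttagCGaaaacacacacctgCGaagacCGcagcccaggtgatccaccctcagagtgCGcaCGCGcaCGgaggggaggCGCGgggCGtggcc
Ezh2, chr6:47595031-47595130, minus strand: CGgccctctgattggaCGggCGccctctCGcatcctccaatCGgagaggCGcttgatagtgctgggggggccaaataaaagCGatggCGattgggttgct
Tet2, chr3:133544391-133544490, minus strand: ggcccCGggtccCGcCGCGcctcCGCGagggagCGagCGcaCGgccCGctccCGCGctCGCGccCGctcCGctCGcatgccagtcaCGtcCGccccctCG

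These 5 windows held 17, 14, 10, 8 and 20 CpGs, respectively. For Dnmt3a, which has 3 annotated starts, the start printed is the second along the chromosome. Over the longer window of 250 bases before to 50 bases after a start, the 14 annotated promoters of the 10 genes held a median of 26.5 CpGs, against a median of 7 over all 32851 promoters in the same RefSeq set, and 13 of the 14 were above that median. Tet2 held 57 CpGs in this window, Ezh2 31, Dnmt3b 30 and Ezh1 23. The promoter with fewest was the first annotated start of Dnmt1, with 2 CpGs, whereas the most downstream start of Dnmt1 held 33. The letters TTTNNCGC, shared by binding sites of the cell-cycle factor E2F, occurred on either strand in 3 of the 14 promoters (Asxl1, Ezh2 and 1 of the 3 starts of Dnmt1) and in 5.17% of all promoters. Each such match holds a CpG of its own.

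As a check of the labels, Syncrip stood at 1944, 1439.8 and 1794 normalized reads in WT 1 to WT 3 and at 294 in KO 2 and 343 in KO 3. Normalized reads are read counts divided by a size factor of the library, as deposited by the authors. KO libraries retained 18.5% of the WT mean (log2 fold change -2.43 ± 0.22 SE, adjusted p = 0.0352, limma). The log2 fold change of Syncrip stayed below 0 in all alternatives. After removal of the length and GC trend described below, however, it was -1.53 with an adjusted p of 0.138 (limma). The adjusted p of Syncrip was 0.0826 with limma-voom and 0.164 to 0.210 by limma with any WT library left out. Depth was lower in the KO libraries, at 18308876 and 12539599 reads against 21748781 to 22779536 in WT. All 8 HSC markers had reads in every library, and their summed share of all normalized reads was 0.057% to 0.094% in WT and 0.0654% to 0.106% in KO. All 6 granulocyte and monocyte markers, including Mpo and Ngp, also had reads in every library, and with a summed share of 4.4% to 5.51% in WT and 2.08% to 4.08% in KO they were far more abundant than the HSC markers, which goes against a pure stem cell label. All 6 adipocyte markers were highest in KO 2, at 0.107% in sum against 0.00103% or less in the other libraries, with Ucp1 and Cidea at 0 outside KO 2. The CD48-positive progenitor markers Cd48 and Flt3 were lower in both KO libraries in sum (0.00418% and 0.0047% against 0.00681% to 0.00818%), and stroma markers were highest in WT 2 (0.00899% against 0.000825% or less). The part of these other cell types in the values below was not tested, and in bulk RNA fewer cells of a type and less RNA per cell cannot be told apart.

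Per length, the 10 genes spanned a wide range in WT HSCs. Levels were set per kilobase of the gene's merged exons (GENCODE M21, GRCm38). Dnmt1 was the highest at 1501 ± 217 normalized reads per kilobase (SD, n = 3), at percentile 95.2 of the tested genes with a known length. Ezh2 followed at 342 ± 39.0, Asxl1 at 316 ± 37.5 and Dnmt3b at 202 ± 46.9, all above the median of 128 per kilobase over 13015 genes. Ezh1 was near that median at 126 ± 9.82. Kmt2a (82.5 ± 13.5), Tet3 (79.4 ± 12.3) and Dnmt3a (70.9 ± 10.5) lay below it, and Tet2 (33.7 ± 1.66) and Tet1 (23.1 ± 3.44) were the lowest. Among neighbors in this order, the WT ranges overlapped for Ezh2 with Asxl1, for Kmt2a with Tet3 and for Tet3 with Dnmt3a, so these neighbors did not differ beyond their spread, and the other neighbors did not overlap. Levels and order depended on the length used: per kilobase of the longest transcript Ezh2 stood at 819, Ezh1 at 223, Dnmt3a at 122, Tet3 at 121 and Tet2 at 62.0, and Dnmt3a and Tet3 were then above Kmt2a (83.5). Maintenance methyltransferase RNA was therefore the most abundant in this group per length. Per kilobase of merged exon, the order of the TET genes was Tet3, Tet2 and Tet1 in every library except KO 3, where Tet1 (25.2) was above Tet2 (21.7). This exception holds for merged exons only. The longest transcript of Tet2 is much shorter (9179 against 16870 bases), and that of Tet1 is less so (14369 against 15457). In the KO mean per kilobase of merged exon, Dnmt3b moved to the place after Dnmt1 at 413 ± 294 (SD, n = 2), a value set by KO 3 alone. That place of Dnmt3b, ahead of Ezh2, holds for merged exons only. The longest transcript of Ezh2 is much shorter (2787 against 6678 bases), and that of Dnmt3b is less so (4320 against 5106). Dnmt3a moved ahead of Ezh1 at 111 ± 29.5 against 106 ± 6.43 per kilobase of merged exon, within their spread.

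**Figure D1:**
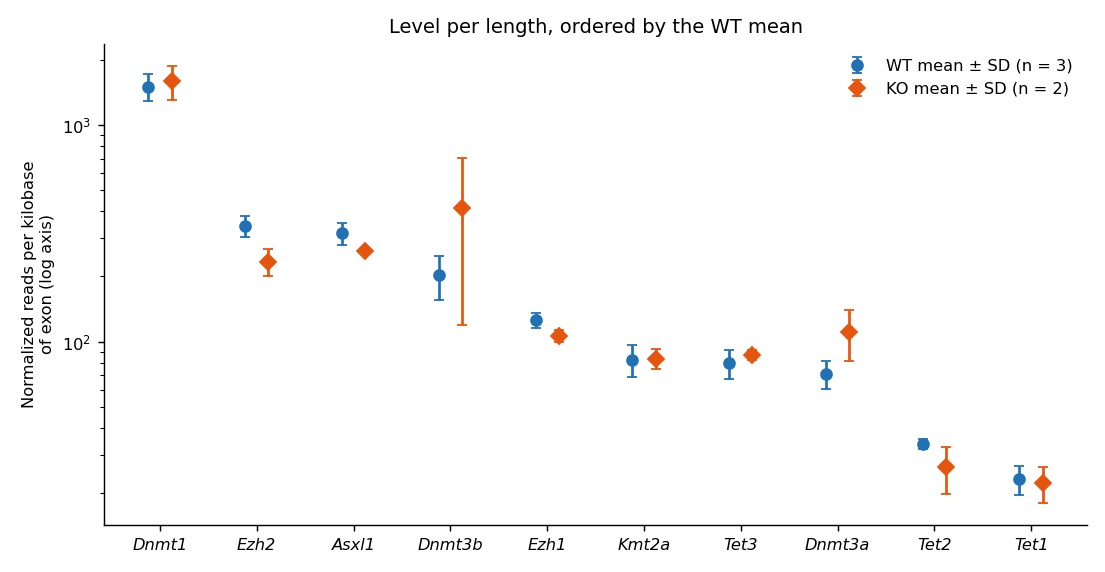
Mean normalized reads per kilobase of merged exon (vertical log axis) for each gene, ordered by the WT mean, with bars of 1 SD (WT, n = 3, blue circles; KO, n = 2, orange diamonds). Dnmt1 stood at 1501 in WT and Tet1 at 23.1, and the widest KO bar was that of Dnmt3b.

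Comparing KO with WT asked whether loss of Syncrip was accompanied by altered RNA levels of these regulators. None of the 10 passed an adjusted p under 0.05 by limma, edgeR or DESeq2. At an unadjusted p under 0.05, 2 passed by limma (Dnmt3a and Ezh2), and 3 each by edgeR and DESeq2 (these 2 and Dnmt3b). Over all tested genes, limma called 0.00732% at an adjusted p under 0.05 (1 of 13661 genes, Syncrip) and 27.8% at an unadjusted p under 0.05. The same shares were 0.0146% and 27.2% by edgeR's quasi-likelihood test and 16.6% and 30.4% by DESeq2, so the counts of 2 and 3 of 10 lie near the background. Without the filter on low values, DESeq2 called 18.7% of the 12170 genes to which it gave an adjusted p, and 24.3% of 17487 genes passed an unadjusted p under 0.05. The number of genes called over the whole table thus differed by tool, from 1 with limma to 2279 of 12170 with DESeq2, whereas the number among the 10 regulators was 0 with each tool. The KO values lay above all 3 WT values for 1 of the 10 genes (Dnmt3a) and below all 3 for 4 (Tet2, Asxl1, Ezh1 and Ezh2), while 5 overlapped. Among all tested genes 23.9% lay above and 23.2% below in this way. The median log2 fold change of the 10 genes was -0.02, beside 0.02 over all tested genes, and their median size regardless of sign was 0.25, beside 0.47.

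**Figure D2:**
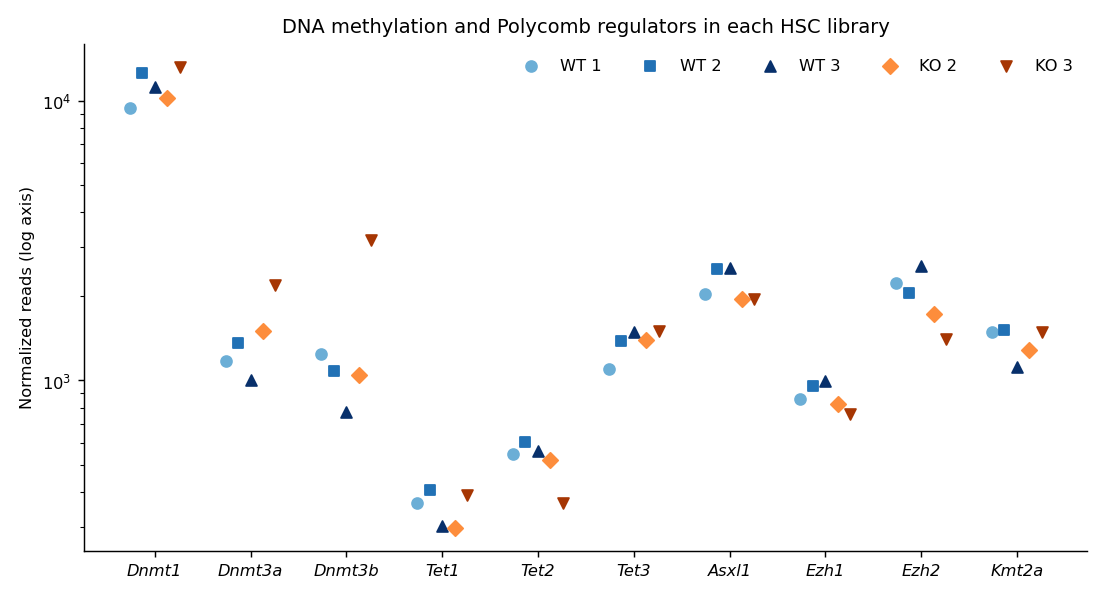
Normalized reads (vertical log axis) of each gene in the 3 WT libraries (blue) and the 2 KO libraries (orange and brown), 1 point per library. Dnmt3b stood at 3169.5 in KO 3 and at 770.4 to 1240.4 elsewhere, and both KO points lay below all WT points for Tet2, Asxl1, Ezh1 and Ezh2.

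Of the DNA methyltransferases, the de novo gene Dnmt3a had higher values in both KO libraries, its paralog Dnmt3b in KO 3 alone, and the maintenance gene Dnmt1 overlapped between the groups. None passed the test. Dnmt3a (chr12:3806007-3914443 on GRCm38) stood at 1174, 1357 and 1007 normalized reads in WT 1 to WT 3 and at 1503 in KO 2 and 2198 in KO 3. Both KO libraries were above all WT libraries, with KO 3 the higher. The KO mean was 1.57 times the WT mean, with a log2 fold change of 0.63 ± 0.23 SE (95% interval 0.10 to 1.16), and the adjusted p was 0.128 by limma and 0.0621 by DESeq2, so the difference did not pass the test. Dnmt3b (chr2:153649450-153687730) stood at 1240.4, 1084 and 770.4 in WT and at 1046 in KO 2 and 3169.5 in KO 3. KO 2 fell within the WT range and KO 3 was above every other library. Its log2 fold change of 0.85 ± 0.43 SE (95% interval -0.12 to 1.82, adjusted p = 0.228, limma) therefore rested on KO 3: against the WT libraries alone, KO 3 differed by 1.65 and KO 2 by 0.05. Dnmt1 (chr9:20907209-20959888), which acts with UHRF1 at replication forks, stood at 9422, 12622 and 11181 in WT and at 10255 and 13219 in KO. The groups overlapped, and the 95% interval of its log2 difference was -0.37 to 0.54.

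The ratio of the de novo genes to each other went in different directions in the 2 KO libraries. Dnmt3a to Dnmt3b was 0.946, 1.25 and 1.31 in WT 1 to WT 3, 1.44 in KO 2 and 0.693 in KO 3 (exact permutation test, two-sided p = 0.8). KO 2 was above and KO 3 below all WT libraries. Among 3 ratios of paralogs that were compared, no p could fall below 0.2 with 3 against 2 libraries. The antisense gene Dnmt3aos overlaps Dnmt3a and had no reads in 4 libraries and 3.08 normalized reads in KO 2. Dnmt3b overlaps Dnmt3bos, and since counting by strand was not stated, reads of a gene and its antisense partner cannot be told apart.

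Of the TET genes, Tet2 was lower in both KO libraries, while Tet1 and Tet3 overlapped between the groups. Tet2 (chr3:133463679-133545139) stood at 548, 601 and 558 normalized reads in WT and at 520.1 in KO 2 and 366 in KO 3. KO 2 lay just under the lowest WT library and KO 3 well below it. The log2 fold change was -0.38 ± 0.25 SE (95% interval -0.94 to 0.18, adjusted p = 0.335, limma), which did not pass the test. Tet1 (chr10:62804570-62908996) stood at 365, 406 and 301 in WT and 297 and 389 in KO, with a log2 interval of -0.69 to 0.57. Tet3 (chr6:83362373-83459084), the TET gene with the most reads here, stood at 1096, 1386 and 1492 in WT and 1393 and 1500.5 in KO, with an interval of -0.33 to 0.60. As ratios these intervals span 0.619 to 1.48 times the WT level for Tet1 and 0.797 to 1.52 times for Tet3, so equal levels are not shown. The ratio of Tet2 to Tet3 was 0.50, 0.433 and 0.374 in WT and 0.373 and 0.244 in KO (log2 difference -0.52, exact permutation test, two-sided p = 0.2, the smallest possible, adjusted p = 0.3 over the 3 ratios). KO 2 was next to the lowest WT library and KO 3 clearly under it. The difference turned to 0.07 once a trend of fold change with transcript length and GC content, described below, was removed.

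Of the Polycomb genes, all 3 lay lower in both KO libraries than in all WT libraries, as did 23.2% of all tested genes. Ezh2 (chr6:47530139-47595341), the PRC2 subunit linked to dividing cells, stood at 2232, 2049.9 and 2564 in WT and at 1725 and 1405 in KO. The groups did not overlap, and the KO mean was 0.686 of the WT mean. The log2 fold change was -0.55 ± 0.19 SE (95% interval -0.98 to -0.11), with an adjusted p of 0.121 by limma and 0.0572 by DESeq2, so the test was not passed. Ezh1 (chr11:101191115-101226463), the paralog found more in resting cells, stood at 857, 956 and 999 in WT and 825 and 758 in KO, which was lower in both by a smaller margin (log2 -0.24 ± 0.20 SE, adjusted p = 0.446, limma). Asxl1 (chr2:153345829-153404007) stood at 2030.5, 2508 and 2519 in WT and at 1955 and 1956 in KO. The KO values were nearly equal and close under WT 1, the lowest WT library (log2 -0.26 ± 0.18 SE, adjusted p = 0.373, limma). The ratio of Ezh2 to Ezh1 was 2.61, 2.15 and 2.57 in WT and 2.09 and 1.85 in KO. Ezh2 thus exceeded Ezh1 in all 5 libraries, and both KO ratios were below all WT ratios (log2 difference -0.30, exact permutation test, two-sided p = 0.2, adjusted p = 0.3). Removing the length and GC trend turned this difference to 0.21.

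Kmt2a (chr9:44803355-44881296) did not part by genotype. It stood at 1491, 1519 and 1115 in WT and at 1289 and 1493 in KO. The KO mean was 1.01 times the WT mean, with a 95% interval of 0.729 to 1.42 times.

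**Figure D3:**
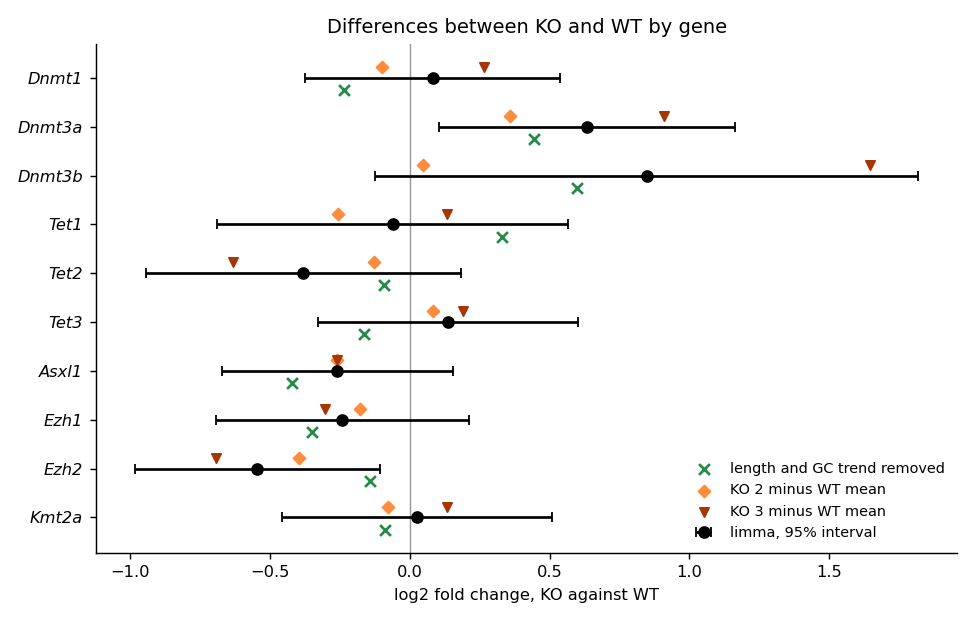
Log2 fold change of KO against WT (horizontal axis) for each gene, as the limma estimate with its 95% interval (black), after removal of the trend with length and GC content (green crosses), and for KO 2 and KO 3 each minus the WT mean (diamonds and triangles). Only the intervals of Dnmt3a and Ezh2 left out 0, and for Dnmt3b KO 2 stood at 0.05 and KO 3 at 1.65.

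For 8 of the 10 genes KO 3 lay farther from the WT mean than KO 2 did, as did 72.5% of all tested genes. With KO 3 as the only KO library, limma called Dnmt3a (log2 0.91, adjusted p = 0.0344) and Dnmt3b (log2 1.65, adjusted p = 0.0142), and Ezh2 stood at -0.69 with an adjusted p of 0.0508. This fit assumes that the lone library varies as the WT libraries do, and it called 22.1% of all tested genes. With KO 2 as the only KO library none of the 10 was called, and Dnmt3a stood at 0.36, Dnmt3b at 0.05 and Ezh2 at -0.40. KO 3 was also the library with the fewest reads, the lowest share of granulocyte and monocyte markers (2.08%) and the highest share of HSC markers (0.106%).

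The fold change of all genes rose with the GC content of the transcript. Over 10 bins of GC content the median log2 fold change went from -0.76 in the bin of lowest GC (median 39.8%) to 0.73 in the highest (59.9%). Ezh2 (44.4% GC), Tet2 (45.4%) and Tet1 (43.7%) are the low-GC members of the group, and the other 7 lay between 50.6% and 53.9%. With the trend on length and GC removed in each library, Ezh2 moved from -0.55 to -0.14 and Tet2 from -0.38 to -0.09, while Tet1 went from -0.06 to 0.33. Dnmt3a went from 0.63 to 0.44 and Dnmt3b from 0.85 to 0.60, and Asxl1 and Ezh1 moved away from 0, to -0.42 and -0.35. Their place in the order by size therefore depended on this step, and none of the 10 passed an adjusted p under 0.05 after it.

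**Figure D4:**
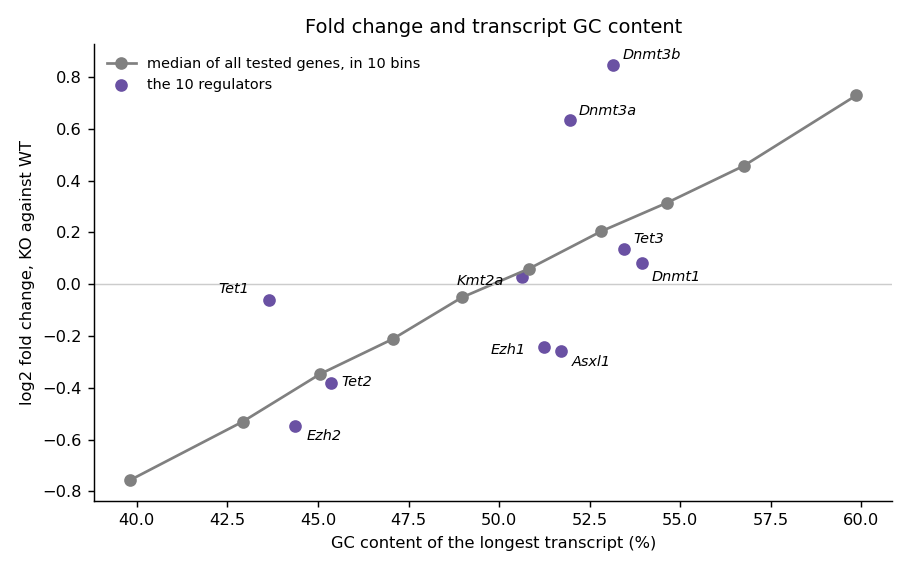
Log2 fold change of KO against WT (vertical axis) against the GC content of the longest transcript (horizontal axis, percent), for the 10 genes (purple) and as the median of all tested genes in 10 bins (gray line). The line rises from -0.76 to 0.73. Ezh2 and Tet2 lay near it, and Dnmt3a and Dnmt3b lay above it.

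Partners, relatives and target genes of the 10 regulators were taken from 10 lists. Of their 121 genes in the table, 102 could be tested. No list gene passed an adjusted p under 0.05 by limma or edgeR, while 20 did by DESeq2 (8 with higher and 12 with lower KO values), which is 19.6% of the list genes beside 16.6% of all tested genes. At an unadjusted p under 0.05 there were 33 by limma, 32 by edgeR and 34 by DESeq2. These are 32.4%, 31.4% and 33.3% of the list genes, beside 27.8%, 27.2% and 30.4% of all tested genes. Likewise 20.6% lay above and 27.5% below all WT libraries, against 23.9% and 23.2% over all genes, so the genes named here are described and nothing particular to the lists is read from their counts. Removing the length and GC trend turned the direction of the limma fold change for 35 of the 102 genes, among them 4 of the 20 (Hells, Mbd3, Mtf2 and Phc2). Below, "called" refers to DESeq2 on the recovered reads, and an adjusted p is given with its tool.

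Among 13 genes of DNA methylation maintenance and reading, 2 were higher and 5 lower in both KO libraries than in all WT libraries (15.4% and 38.5%, beside 23.9% and 23.2% over all genes), with a median log2 fold change of 0.00 (-0.13 with the length and GC trend removed). Mbd3, a subunit of the NuRD repressor complex, was called, and stood at 3502, 3947 and 3627 normalized reads in WT and at 4718 and 7777 in KO (log2 0.72 by limma; adjusted p = 0.0233, DESeq2). Hells, a chromatin remodeler needed for DNA methylation and named for its call after its values were seen, stood at 1182, 903 and 1117 in WT and 655 and 673 in KO (log2 -0.68 by limma; adjusted p = 0.0260, DESeq2). Both turned direction with the length and GC trend removed, Mbd3 to -0.20 and Hells to 0.18. Trim28 (log2 0.51, and -0.20 with the trend removed), a corepressor of zinc finger proteins, and Mbd4 (log2 -0.81, and -0.37 with the trend removed), a glycosylase for mismatches at CpGs, were not called. Dnmt3l, a catalytically inactive partner of the de novo enzymes, was low, at 45.1 to 66.8 in WT and 40.1 and 12.1 in KO, and was not called. Uhrf1, the partner of Dnmt1, overlapped between the groups at 5866 to 7443 in WT and 7067 and 8353 in KO.

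Among 4 tested TET partners and demethylation genes, 1 was called in each direction, which is 50% of the list beside 16.6% of all tested genes. Likewise 1 lay above and 1 below all WT libraries (25% each, beside 23.9% and 23.2% over all genes). With 4 genes these shares are coarse, and nothing is read from them. Ogt, the O-GlcNAc transferase that binds TET proteins, stood at 3188, 2912 and 3292 in WT and at 1923 and 1098 in KO (log2 -1.10 ± 0.25 SE by limma; adjusted p = 0.00341, DESeq2). Cxxc5, a CpG-binding relative of the Tet2 partner Cxxc4, stood at 1456, 1233 and 709.6 in WT and at 1646 and 5770 in KO (log2 1.51 ± 0.50 SE by limma). Its KO 2 value was close to the highest WT value, so that the size of the difference rested on KO 3. With the length and GC trend removed, Ogt stood at -0.62 and Cxxc5 at 1.13. Wt1 and Cxxc4 had too few reads to be tested.

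Of 10 genes of PRC2 and its accessory subunits, partners of EZH1 and EZH2, 4 were lower in both KO libraries and 0 higher in both (40% and 0%, beside 23.2% and 23.9% over all genes), with a median log2 fold change of -0.33 (-0.05 with the length and GC trend removed). Suz12, a core subunit, stood at 2758, 2648 and 3376 in WT and at 1844 and 1769 in KO, and was called (adjusted p = 0.00938, DESeq2). Mtf2, which recruits PRC2 to CpG islands, stood at 1931, 1753 and 1840 in WT and 1241 and 1115 in KO and was called as well (adjusted p = 0.0103, DESeq2). With the trend removed Suz12 stood at a log2 difference of -0.10 and Mtf2 at 0.19, on the other side of 0. The histone-binding subunit Rbbp7 (log2 -0.46, and -0.07 with the trend removed) and Lcor (log2 -0.95, and -0.40 with it removed), whose locus also encodes an accessory subunit, were not called, and Eed, the third core subunit, overlapped between the groups at 1570 to 1966 in WT and 1507 and 1598 in KO.

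PRC1 genes lay on both sides. Of 23 genes, 7 were higher and 4 lower in both KO libraries, which is 30.4% and 17.4% against 23.9% and 23.2% over all genes, and the median log2 fold change was 0.13 (0.14 with the length and GC trend removed). Cbx6 stood at 1823, 1580 and 1085 in WT and at 2466 and 4397 in KO, and Cbx2 at 348, 389.7 and 297 in WT and 555 and 825 in KO. Both encode chromobox readers of Polycomb-marked chromatin, and both were called (adjusted p = 0.00496 and 0.0120, DESeq2). With the trend removed, Cbx6 went from 1.17 to 0.78 and Cbx2 from 0.98 to 0.42 on the log2 scale. Ring1 and Phc2 were called higher too, and were named after their values were seen. Rnf2, the ubiquitin ligase paralog of Ring1, was called lower, from 1564, 922 and 1150.0 in WT to 604 and 545 in KO (adjusted p = 0.00469, DESeq2). Ring1 stood at 696 to 771 in WT and 931 and 1642 in KO. With the length and GC trend removed, Rnf2 went from -1.04 to -0.29 and Ring1 from 0.76 to 0.27 on the log2 scale. Rybp (log2 -0.66, and -0.21 with the trend removed) was lower in both KO libraries and was not called.

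Among 8 tested partners of ASXL1 and BAP1, 3 were higher and 3 lower in both KO libraries (37.5% each, beside 23.9% and 23.2% over all genes), and the median log2 fold change of 0.29 turned to -0.10 with the length and GC trend removed. Kdm1b, a histone demethylase, was the only one called, from 1364, 975 and 1448 in WT to 683 and 495 in KO (adjusted p = 0.00317, DESeq2), and its log2 fold change went from -1.10 to -0.72 with the trend removed. Foxk2 (log2 0.47, and 0.21 with the trend removed), Mbd6 (log2 0.38, and -0.58 with the trend removed) and Mbd5 (log2 -0.89) were not called, and Asxl3 had no reads. Bap1 itself stood at 2994 to 3373 in WT and 3503 and 4158 in KO, a log2 difference of 0.25 that was not called and stood at -0.04 with the trend removed.

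Among 16 KMT2 family genes and partners, 4 were higher and 4 lower in both KO libraries, 25% each beside 23.9% and 23.2% over all genes, and the median log2 fold change of 0.07 turned to -0.16 with the length and GC trend removed. Kdm6a, the demethylase that removes the PRC2 mark, was called, from 1479, 1152 and 1443 in WT to 582 and 907 in KO (adjusted p = 0.0171, DESeq2), and its log2 fold change went from -0.89 to -0.38 with the trend removed. Rbbp5, a core subunit of KMT2 complexes, was called, from 1677, 1508 and 1546 in WT to 1187 and 664 in KO (adjusted p = 0.0445, DESeq2). Cxxc1 (log2 0.65) and Setd1a (log2 0.54) were higher in both KO libraries and were not called, and with the trend removed they stood at 0.04 and -0.0029.

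Target genes of KMT2A were highest in KO 3 for all 8 of the list, as were 35% of all tested genes. Of the 8, 7 had a log2 fold change above 0, as did 6979 of the 13661 tested genes. Their median was 0.76 (0.92 with the length and GC trend removed), and the median difference from WT was 0.08 in KO 2 and 1.30 in KO 3. Hoxa7 stood at 176, 146 and 84.0 in WT and at 206 and 778 in KO and was the only one called (adjusted p = 0.0133, DESeq2). Hoxa5 stood at 80.8, 82.4 and 56.6 in WT and at 105 and 187 in KO and was not called. The other 6 overlapped between the groups. Mecom belongs to the HSC marker list as well, and 6 of the 8 HSC markers were highest in KO 3.

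Of the lists of genes known to be silenced by Polycomb or by DNA methylation, most gave too few reads to be tested. Of 10 Polycomb-silenced genes and 10 germline genes, 2 of each could be tested (Hmga2 and Igf2bp3, Ddx4 and Sycp3), all 4 with reads in every library, and none was called. Cdkn2a, a cell-cycle inhibitor repressed by PRC1 and PRC2 and named here after its values were seen, had 0 reads in all 3 WT libraries and 6 and 7 reads in KO 2 and KO 3. Its neighbor Cdkn2b, named in the same way, had 0 reads in WT, 14 in KO 2 and 1 in KO 3. In the other direction, the germline gene Dazl, also named after its values were seen, had 10, 4 and 7 reads in WT and 0 in both KO libraries. A library with 0 reads allows up to 3 (2.50 to 2.60 normalized reads in the WT libraries, 3.08 and 4.56 in KO 2 and KO 3), a limit that covers counting error only, and 1 read is within it. All 3 genes were under the filter and were not tested. How many other genes under the filter had reads in only 1 genotype was not counted, so nothing is read from these 3.

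RNA of S phase and mitosis genes, like that of Ezh2 and Dnmt1, is known to be higher in dividing cells. Of 16 such genes, 7 were lower and 2 higher in both KO libraries (43.8% and 12.5%, beside 23.2% and 23.9% over all genes), with a median log2 fold change of -0.38 (-0.23 with the length and GC trend removed). The median difference from WT was -0.086 in KO 2 and -0.74 in KO 3, so it rested largely on KO 3. Bub1, a spindle checkpoint kinase, stood at 1600, 1682 and 1957 in WT and at 850 and 551 in KO (adjusted p = 9.68e-05, DESeq2), and Top2a, a topoisomerase, at 9271, 8872 and 10448 in WT and 6130 and 3624 in KO (adjusted p = 0.00448, DESeq2). With the trend removed, Bub1 went from -1.34 to -0.71 and Top2a from -1.01 to -0.56 on the log2 scale. Mcm2 (log2 0.38), a subunit of the replicative helicase, and Plk1 (log2 0.29, and -0.14 with the trend removed), a mitotic kinase, were higher in both KO libraries and were not called.

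**Figure D5:**
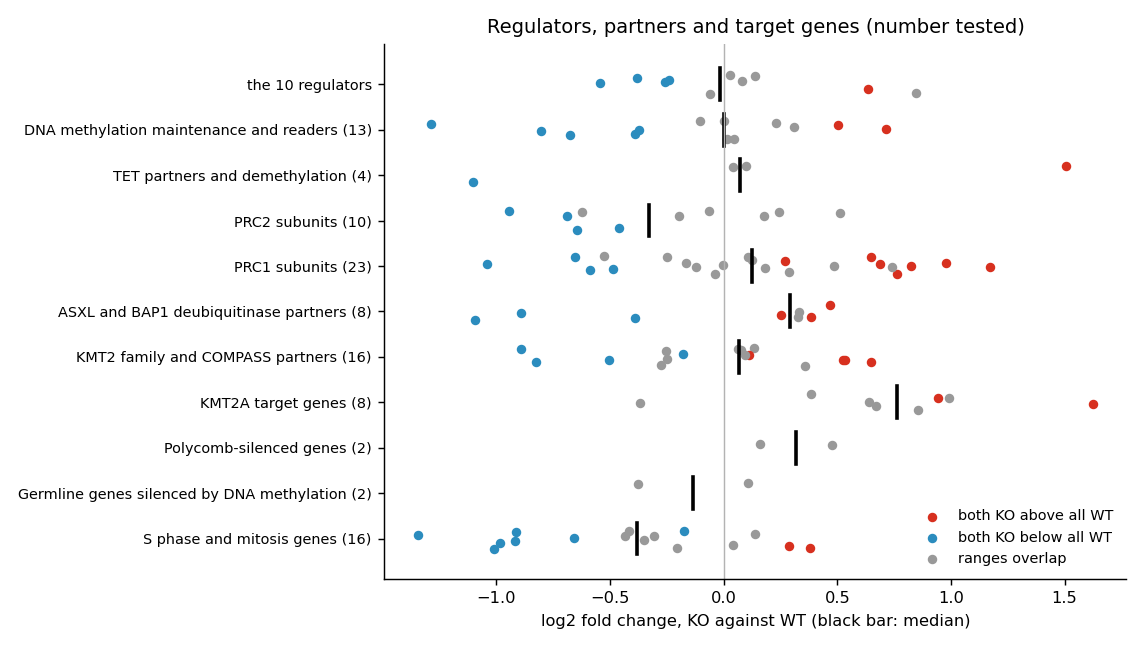
Log2 fold change of KO against WT (horizontal axis) for the 10 regulators and for the tested genes of each list, 1 point per gene, with the median as a black bar. Red points had both KO libraries above all WT libraries, blue points both below, and gray points overlapped. The median was -0.33 for PRC2 subunits, 0.76 for KMT2A target genes and -0.38 for S phase and mitosis genes. In KO 2 and KO 3 apart, the median difference from WT was -0.26 and -0.40, 0.08 and 1.30, and -0.086 and -0.74, respectively.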

How the data were processed

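Per the labels, total RNA of sorted HSCs was amplified with the SMART-Seq v4 kit. The submitters' processing notes name STAR, featureCounts, DESeq2 and the build mm10, and versions, annotation and use of strand were not given in the sources used here. The authors deposited normalized signal per gene symbol (read counts divided by a size factor of the library). All positive values were whole multiples of 1 step per library (0.833 to 1.52), and dividing by it gave whole reads for 100% of values within 0.01. A table of the authors' own comparison (log2 fold changes, p-values, adjusted p-values) was not used. No per-sample column was left out (0). Recovered totals were 21915461, 21748781 and 22779536 reads in WT 1 to WT 3, and 18308876 and 12539599 in KO 2 and KO 3. The reads carry no molecular identifiers and so are not separate molecules.

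Since the signal is not counts, the main test was limma 3.58.1 (lmFit, then eBayes with its trend option) on log2(value + 1), over genes that reached 10 in 2 or more libraries, with Benjamini-Hochberg adjustment over all genes tested and a limit of 0.05. Fold changes are on that scale, which understates changes of low genes. edgeR (version 4.0.16, quasi-likelihood) and DESeq2 (version 1.42.0) were run on the recovered reads in R 4.3.3, where the adjusted p of genes that DESeq2 set aside stayed missing. Scripts were tested on simulated data. Ratios were compared by exact permutation (scipy 1.17.1). Length and GC content came from GENCODE M21 for 13015 of 13661 tested genes (95.3%) and all 10 regulators. Promoters came from RefSeq, and all 10 genes matched by symbol.

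The regulators and lists were chosen with earlier results of these data known. Named were the 10 regulators, Syncrip and, from each list, among genes with no overlap between KO and WT libraries, the 2 highest and 2 lowest by log2 fold change. Genes outside this rule were added after their values were seen. Alternatives were other pseudocounts, filters, scalings, weights and tools, a replicate block, removal of the length and GC trend, and each library left out.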

Additional observations from a re-analysis of the deposited data

How the results depend on the processing

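The count of 0 regulators at an adjusted p under 0.05 held in 17 of 18 alternatives, and was 0 to 2 with each library left out (2 without KO replicate 2, 4 at an unadjusted p). Leaving out libraries gave 5 to 8 regulators beyond all WT values (8 without KO replicate 2, an alternative chosen after seeing the data). Over all genes the count of 1 became 2 with a pseudocount of 10 and with edgeR, 0 with no filter, array weights, limma-voom or the length and GC trend removed, 2279 with DESeq2, and 0 to 3024 with libraries left out (3024 without KO replicate 2, 4 without KO replicate 3). List genes called were 20 with DESeq2 and 0 to 30 with libraries left out (30 without KO replicate 2).

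Dnmt3a, Dnmt3b, Tet2, Asxl1, Ezh1 and Ezh2 kept their direction in all 18 alternatives, with Dnmt3a from 0.36 to 0.91, Dnmt3b from 0.05 to 1.65 and Ezh2 from -0.69 to -0.14 on the log2 scale and adjusted p from 0.0344 to 0.524, 0.0142 to 0.947 and 0.0508 to 0.799, respectively. The 4 regulators near 0 changed sign, and the cause was not tested. Dnmt1 stood at -0.0030 with quantile normalization, -0.23 with the length and GC trend removed and -0.10 to 0.27 with libraries left out. Tet1 stood at 0.33 with the trend removed and -0.26 to 0.13 with libraries left out, Tet3 at -0.17 with the trend removed, and Kmt2a at -0.00086 with limma-voom, -0.0049 with edgeR, -0.087 with the trend removed and -0.12 to 0.13 with libraries left out. The log2 ratio of Dnmt3a to Dnmt3b ranged from -0.74 to 0.31 (0.31 without KO replicate 3), and with the trend removed, an alternative also chosen after seeing the data, the ratios of Ezh2 to Ezh1 and Tet2 to Tet3 turned to 0.21 and 0.073. Syncrip stayed lower in all 18 alternatives and lost its call in 8, with adjusted p of 0.0503 with no filter and 0.0594 with array weights among them. Other scalings moved the median of all genes by under 0.1.

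WT and KO share the replicate numbers 2 and 3, and nothing in the labels ties them, so the numbers were not taken as pairs. The deviations of same-numbered libraries from their group means correlated at -0.06 and -0.18. With 2 KO libraries the KO deviations are mirror images of each other, so these values are not separate and cannot decide on pairing. With the replicate block 0 regulators and 6 genes overall were called, and with the block and the trend removed together 0 and 4. Dnmt1 stood at -0.029 under the block, and under both steps at -0.30, with Tet1 at 0.37 and Tet3 at -0.23. Depth limits low genes most: 3 reads correspond to 4.56 normalized reads in KO 3.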
